A study of Mus musculus with 8 samples.

Results

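Interferon-stimulated genes are the genes that cells switch on when an interferon, a secreted antiviral cytokine, binds its receptor. The 40 genes described here were chosen by name, from the receptor of type I interferon to transcription factors, nucleic acid sensors and antiviral effectors, and not by any measured value. Of the 40, 36 had a probe set of their own on the array, among 22180 genes in all, and 34 were bright enough to be tested, among 13449 tested genes. Oas1a, Gbp2 and Dtx3l were measured only by probe sets shared with a neighbouring copy or gene, and the platform annotation used here listed no probe set for Ifi44.

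Liver RNA of male mice was measured on 8 whole-transcript arrays, 4 from wild type littermates and 4 from mice with the TM6SF2 E167K knock in, a coding variant of a liver protein that takes part in lipid secretion. Both groups are labelled as strain C57BL/6J. The labels disagree on diet: the series text gives a high fat diet for 20 weeks, while the note on each sample gives a sucrose diet free of fat, or chow, for 14 weeks, so no result is tied to a diet. Nothing in the labels states outright that every array is its own mouse, so a p-value here covers only the spread among these arrays, which may be technical. All values are log2 intensities as the authors normalized them, changes are knock-in minus wild type, and "array 1" stands for the array of replicate 1.

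Type I interferons bind a receptor made of the chains Ifnar1 and Ifnar2. The receptor's kinases then activate Stat2, which joins Irf9 in a complex that enters the nucleus and binds the interferon-stimulated response element (ISRE) in the promoters of the target genes. Type II interferon acts through another receptor, and its targets carry the gamma-activated sequence (GAS). Hepatocytes carry these receptors, and Kupffer cells, the resident macrophages of the liver, are a known source of type I interferon.

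The response element is shown first, since it is the sequence these genes are known for. The RefSeq promoter table (build GRCm38.p6, 250 bases before to 50 bases after each annotated start) held windows for 30 of the 40 genes. The core of the ISRE was searched as GAAANNGAAA and the GAS as TTCNNNGAA, both on either strand, with overlapping matches counted. The ISRE core was found for 16 of the 30 genes (53.3%), against 3.99% of the 27025 genes in the table. For the GAS letters the shares were 30% and 9.55%. The lines below show stretches around the ISRE core in promoters of genes described later, each on its gene's strand from 5′ to 3′. Every ISRE match is in capitals. GAS matches are not marked, and the stretches of Igtp and Bst2 each hold 1.

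Stat2, chr10:128270261-128270300, plus strand: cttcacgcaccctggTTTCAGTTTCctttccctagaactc
Isg15, chr4:156200860-156200911, minus strand: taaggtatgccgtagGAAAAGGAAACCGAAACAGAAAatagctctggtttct
Ifit1, chr19:34640770-34640828, plus strand: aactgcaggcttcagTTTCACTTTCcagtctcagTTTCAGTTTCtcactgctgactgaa
Igtp, chr11:58199507-58199546, plus strand: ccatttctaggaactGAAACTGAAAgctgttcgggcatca
Irgm1, chr11:48871420-48871465, minus strand: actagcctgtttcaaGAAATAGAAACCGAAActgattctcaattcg
Rsad2, chr12:26456548-26456587, minus strand: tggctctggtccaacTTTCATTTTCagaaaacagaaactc
Bst2, chr8:71537572-71537617, minus strand: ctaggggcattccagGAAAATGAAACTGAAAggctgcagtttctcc

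Isg15 holds 3 overlapping matches, the first beginning 78 bases before the annotated start. Stat2, Ifit1 and Rsad2 carry the core on the opposite strand, which is why TTTC appears there in capitals. The windows of Irf9, Irf7, Cmpk2 and Xaf1 held neither set of letters, which says only that the letters are not in these 300 bases. Among the measured genes, the 14 with an ISRE match had a median change of -0.33, and the 12 without one had a median of -0.30. A negative change was seen in 10 of the 14 with a match and in 12 of the 12 without. At an unadjusted p under 0.05, 8 of the 14 and 4 of the 12 were lower, against 5.29% of all tested genes. Bst2 is shown as a gene that holds the core and had a change near 0.

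Before the results, 1 array has to be set apart. Knock-in array 3 held transcripts of the exocrine pancreas: 13 genes of pancreatic acinar enzymes and secreted proteins were all higher there than on the other 7 arrays, with levels of 7.96 to 12.32 and a median of 10.59. The chymotrypsinogen Ctrb1 read 12.32 there and the carboxypeptidase Cpb1 10.57. On knock-in array 4, 11 of the 13 genes lay above every wild type array, at a median of 4.31, with Ctrb1 at 7.04. The medians on the remaining 6 arrays were 2.79 to 3.29. The acinar list was written after these values were seen. Results below are given with all arrays. The main counts and the changes of the receptor chains, the transcription factors and the 10 genes with the smallest p are also given without both knock-in arrays 3 and 4, called the acinar arrays below.

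Most interferon-stimulated genes lay lower in the knock-in livers, by amounts that did not pass the test over all genes. Of the 34 tested genes, 30 had a negative change and 4 a positive one, with a median of -0.39, where 48.9% of all tested genes had a negative change and the median was 0.00. With the 2 dim genes, 32 of 36 were negative (51.2% of all genes without the filter) and the median was -0.38. The largest differences were at -0.81 for Ifit1, an RNA-binding antiviral protein, -0.78 for the nucleotide kinase Cmpk2, -0.76 for the deconjugating protease Usp18 and -0.74 for the GTPase Mx2. None of the 34 tested genes had a limma adjusted p under 0.05 (0.0669% of all tested genes did), and the lowest was 0.113, for Irf9. At an unadjusted p under 0.05, 17 of the 34 were lower and 0 higher, where 5.29% of all tested genes were lower and 6.01% higher. The knock-in arrays all lay below the wild type arrays for 7 of the 34 genes, and all above for 0, against 3.20% and 3.96% of all tested genes. Changes of -0.5 or below were seen in 12 of the 34, against 1.99% of all tested genes.

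The count of 17 depended on single arrays. It was 10 without wild type array 4 (4.59% of all tested genes) and 11 without knock-in array 1 (5.14%). It was 18 without knock-in array 3 (4.65%) and 23 without both knock-in arrays with acinar transcripts (5.09%). Without both, the knock-in arrays all lay below wild type for 23 of the 34 genes (9.84% of all tested genes), as fewer knock-in arrays overlap less often, and 20 were at -0.5 or below (3.51%). Without knock-in array 3 alone these counts were 10 (4.67%) and 13 (2.47%). The median over the 36 genes was -0.43 without knock-in array 3 and -0.51 without both. In these 4 fits 0 of the 34 genes passed the adjusted threshold. Of all tested genes, 2 passed without wild type array 4 and 1 in each of the other fits. With the replicate number as a block, 0 of the 34 passed (0.0149% of all tested genes) and 18 were lower at an unadjusted p under 0.05 (4.68%).

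**Figure D1:**
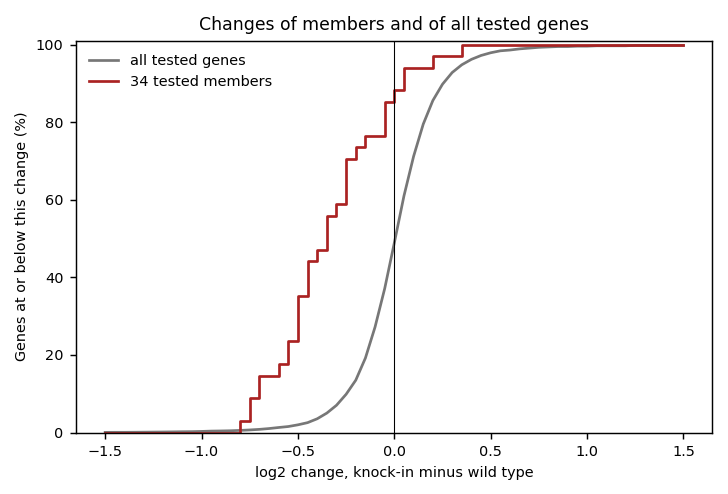
Cumulative share of genes (vertical axis, percent) at or below each log2 change, knock-in minus wild type (horizontal axis), for the 34 tested interferon-stimulated genes (red steps) and all 13449 tested genes (grey line). At a change of -0.35, 55.9% of the tested members and 5.02% of all tested genes had been reached.

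**Figure D2:**
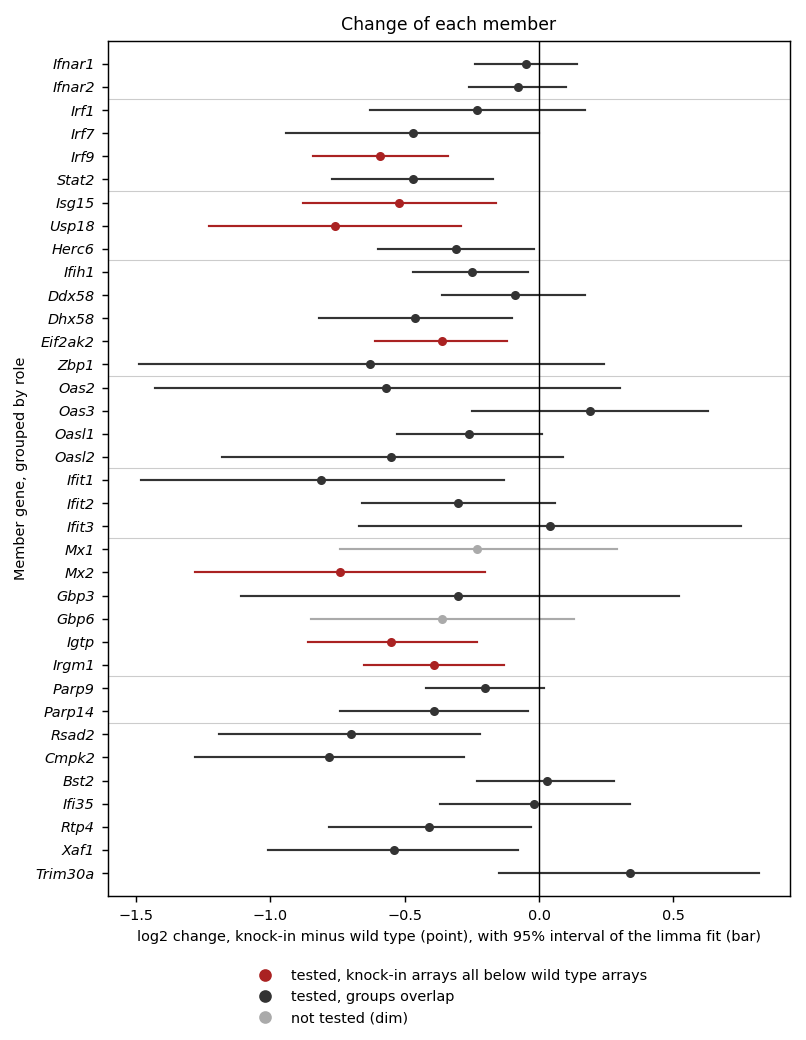
Log2 change of each of the 36 measured genes (points, horizontal axis) with the 95% interval of the limma fit (bars), grouped by role. Red marks the 7 tested genes whose knock-in arrays all lay below the wild type arrays, and grey the 2 genes too dim to be tested (Mx1 and Gbp6).

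The receptor chains showed the smallest spread and hardly any difference. Ifnar1 read 9.37, 9.40, 9.58 and 9.44 on wild type arrays 1 to 4 and 9.33, 9.35, 9.43 and 9.47 on the knock-in arrays. Ifnar2 read 10.32, 10.28, 10.22 and 10.22 in wild type and 10.08, 10.25, 10.11 and 10.27 with the knock-in. For both chains the groups overlapped. Ifnar1 was at -0.05 (SE 0.08, limma adjusted p = 0.878, with an interval at 95% of -0.24 to 0.14) and Ifnar2 at -0.08 (SE 0.08, limma adjusted p = 0.773, with an interval of -0.26 to 0.10), so changes of the size seen in Irf9 lie outside both intervals. Without both acinar arrays they were at -0.10 and -0.09.

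Among the transcription factors, the partners of the ISRE-binding complex showed the clearest separation. Irf9, the DNA-binding subunit, read 8.95, 9.03, 8.73 and 8.85 in wild type and 8.12, 8.21, 8.34 and 8.52 with the knock-in. Its highest knock-in array lay below its lowest wild type array. The change was -0.59 (SE 0.11, limma adjusted p = 0.113, exact permutation p = 0.0286, the smallest that 4 against 4 arrays allow), and -0.72 without both acinar arrays. Stat2, its partner, read 8.43, 8.27, 8.53 and 8.41 in wild type and 7.78, 7.81, 7.83 and 8.32 with the knock-in. Here 3 knock-in arrays lay close together and well below wild type, and array 4 lay among the wild type values. Its change was -0.47 (SE 0.13, limma adjusted p = 0.251), and -0.61 (adjusted p = 0.190) without both acinar arrays.

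Irf7, which drives further interferon production, read 8.42, 8.54, 8.71 and 8.89 in wild type and 7.65, 8.02, 8.32 and 8.69 with the knock-in, where the arrays spanned 1.03. Among the knock-in arrays, array 4 alone lay above the wild type mean of 8.64. Its change was -0.47 (SE 0.21, limma adjusted p = 0.443), and -0.80 (adjusted p = 0.231) without both acinar arrays but -0.30 (adjusted p = 0.609) without knock-in array 1. Irf1, a factor that responds strongly to type II interferon, read 6.29, 6.66, 6.75 and 6.71 in wild type and 6.43, 6.03, 6.81 and 6.23 with the knock-in, with groups that overlapped and a change of -0.23 (SE 0.18, adjusted p = 0.681). Irf1 moved to -0.11 without knock-in array 2, to -0.37 without knock-in array 3 and to -0.38 without both acinar arrays.

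The 3 genes of the ISG15 system each lay lower at an unadjusted p under 0.05 (5.29% of all tested genes did), and none passed the adjusted threshold. Isg15, a ubiquitin-like protein that is attached to newly made proteins, read 6.2, 6.67, 6.28 and 6.51 in wild type and 5.51, 5.90, 6.14 and 6.05 with the knock-in. Usp18, which removes Isg15 from its targets and also blocks the type I receptor, read 8.36, 8.70, 8.47 and 8.84 in wild type and 7.23, 7.88, 8.0 and 8.23 with the knock-in. The groups did not overlap for either gene, although knock-in array 3 for Isg15 and array 4 for Usp18 came close to the lowest wild type array. The changes were -0.52 (SE 0.16, limma adjusted p = 0.293) and -0.76 (SE 0.21, limma adjusted p = 0.242), and without both acinar arrays -0.71 and -1.04. Herc6, the ligase that attaches Isg15 in mice, was at -0.31 (SE 0.13, adjusted p = 0.387), with knock-in array 4 inside the wild type range.

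**Figure D3:**
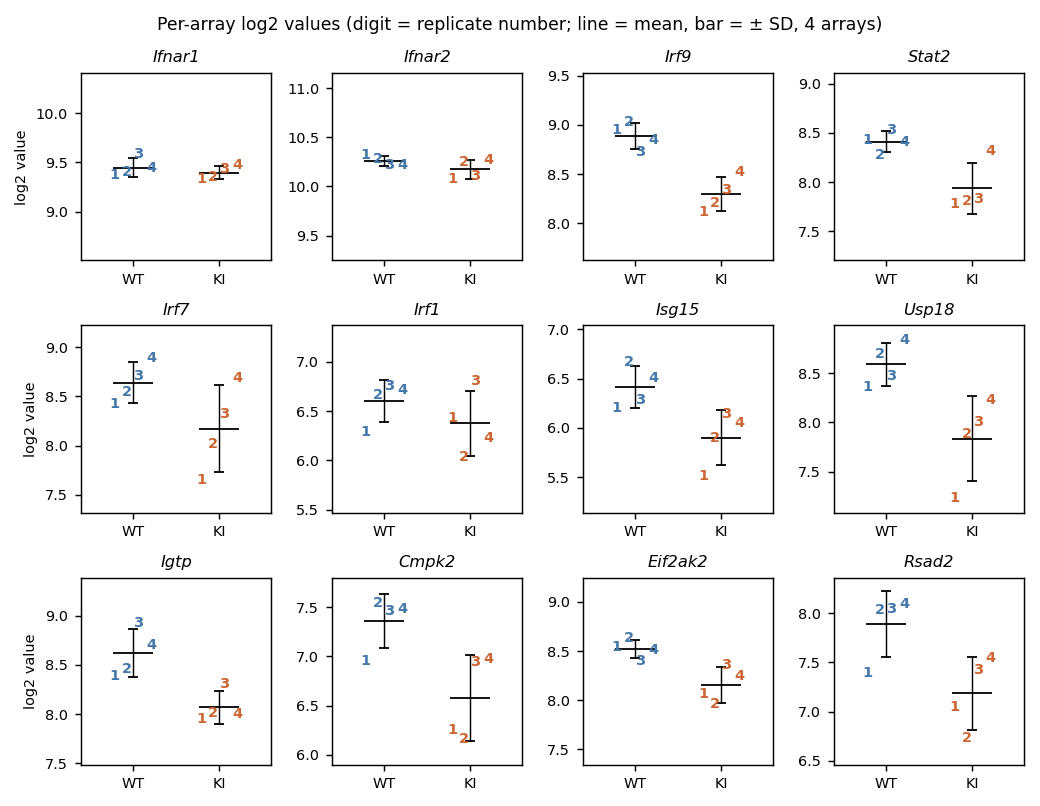
Log2 values (vertical axes, each panel spanning the same width) of 12 genes on each array, where the digit is the replicate number, blue is wild type and orange knock-in, the line is the mean and the bar ± SD of 4 arrays. Irf9, Isg15, Usp18, Igtp and Eif2ak2 separate the groups, while the groups overlap in all other panels, Ifnar1 and Ifnar2 among them.

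Of the 5 nucleic acid sensors, 3 lay lower at an unadjusted p under 0.05 (5.29% of all tested genes) and none passed the adjusted threshold. Eif2ak2, the kinase PKR that halts translation when it binds double-stranded RNA, read 8.54, 8.63, 8.40 and 8.51 in wild type and 8.06, 7.96, 8.36 and 8.25 with the knock-in. All knock-in arrays lay below the wild type range, the nearest by a narrow margin. Its change was -0.36 (SE 0.11, limma adjusted p = 0.266), and -0.51 without both acinar arrays. The cytosolic RNA sensor Ifih1 (MDA5) was at -0.25 (SE 0.10) and its relative Dhx58 (LGP2) at -0.46 (SE 0.16), while the third of these helicases, Ddx58 (RIG-I), was at -0.09 (SE 0.12, limma adjusted p = 0.820). Zbp1, a sensor of Z-form nucleic acids that can start cell death, read 6.52 to 7.39 in wild type and 5.17, 6.45, 6.78 and 7.06 with the knock-in. It had the widest knock-in range of the 36 genes, 1.89, set by array 1, and its change of -0.63 (SE 0.38, adjusted p = 0.588) was within the spread.

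OAS enzymes make oligoadenylates that switch on the nuclease RNase L. The 40 genes include 4 of the wider OAS family, OAS-like genes among them, with a probe set of their own. None of the 4 had an unadjusted p under 0.05. Oas2 read 4.93, 5.68, 5.84 and 6.55 in wild type and 4.32, 5.07, 5.64 and 5.70 with the knock-in, a change of -0.57 that was smaller than either group's SD (0.66 and 0.64). Oasl1, which restrains Irf7 in mice, was at -0.26 (SE 0.12, limma adjusted p = 0.459), Oasl2 at -0.55 (SE 0.28, adjusted p = 0.508) and Oas3 at 0.19 (SE 0.20, adjusted p = 0.773), or -0.01 without wild type array 2. The probe set shared by Oas1a and Oas1g was at 4.29 ± 0.81 in wild type and 3.59 ± 0.51 with the knock-in (SD, n = 4 each), and this probe set was not tested.

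The 3 IFIT genes, RNA-binding proteins encoded side by side, differed among themselves. Ifit1 read 7.52, 8.04, 7.26 and 7.89 in wild type and 6.07, 6.72, 7.21 and 7.48 with the knock-in, with only knock-in array 4 inside the wild type range. Its change of -0.81 (SE 0.30, limma adjusted p = 0.349) was the largest of the 36, and its pooled SD of 0.50 was larger than that of 96.0% of tested genes. Ifit2 was at -0.30 (SE 0.16, adjusted p = 0.527). Ifit3 read 4.68 to 5.48 in wild type and 4.23, 4.84, 5.58 and 5.65 with the knock-in, so that the knock-in arrays lay on both sides of the wild type range, with a change of 0.04 (SE 0.31, adjusted p = 0.980). That sign turned without wild type array 3 (-0.08), knock-in array 3 (-0.13) or knock-in array 4 (-0.15), and the change was -0.50 without both acinar arrays. Ifit3 has a near-identical copy, Ifit3b, so which copy was measured is uncertain.

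Among the GTPases, the 2 immunity-related GTPases, which respond strongly to type II interferon, separated the groups without passing the adjusted threshold. Their pooled SDs were 0.21 for Igtp and 0.16 for Irgm1, against a median of 0.185 over all tested genes. Igtp read 8.39, 8.46, 8.92 and 8.70 in wild type and 7.95, 8.01, 8.31 and 8.0 with the knock-in, and Irgm1 read 7.42, 7.76, 7.48 and 7.36 against 7.02, 7.05, 7.05 and 7.31. In both genes every knock-in array lay below every wild type array. The changes were -0.55 (SE 0.14, limma adjusted p = 0.202) for Igtp and -0.39 (SE 0.11, limma adjusted p = 0.260) for Irgm1, and without both acinar arrays -0.64 and -0.46.

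Mx2, a dynamin-like GTPase, read 6.10, 7.07, 6.14 and 6.27 in wild type and 5.39, 5.41, 5.74 and 6.07 with the knock-in, with no overlap but with wild type array 2 far above the rest. Its change was -0.74 (SE 0.24, limma adjusted p = 0.298), -0.52 to -0.88 when arrays were left out in turn, and -0.99 without both acinar arrays. Mx1, whose allele in this strain is known to be defective, was at -0.23, lay above the dim limit on 1 array of each group and was not tested. The guanylate-binding protein Gbp3 was at -0.30 (SE 0.36, adjusted p = 0.820), and at 0.02 without knock-in array 1. Gbp6, at -0.36, was below the dim limit on all 8 arrays. The probe set shared by Gbp2 and Gbp2b was at 6.04 ± 0.32 and 6.13 ± 0.36 (SD, n = 4 each, wild type and knock-in).

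Parp14, an ADP-ribosyltransferase, was at -0.39 (SE 0.15, limma adjusted p = 0.377, unadjusted p = 0.0319), and Parp9 at -0.20 (SE 0.10, adjusted p = 0.474). Parp9 works with the ubiquitin ligase Dtx3l. The probe set that Dtx3l shares with Parp9 read 8.24, 8.21, 8.26 and 8.29 in wild type and 7.83, 7.99, 8.12 and 8.05 with the knock-in, without overlap, and was not tested.

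The neighbours Rsad2 and Cmpk2 belong to one antiviral pathway, in which Cmpk2 supplies the nucleotide that Rsad2 (viperin) turns into a chain terminator. Rsad2 read 7.39, 8.03, 8.04 and 8.09 in wild type and 7.05, 6.73, 7.42 and 7.54 with the knock-in. Cmpk2 read 6.95, 7.54, 7.46 and 7.48 in wild type and 6.25, 6.16, 6.94 and 6.97 with the knock-in. In both genes wild type array 1 stood below the other wild type arrays, and only it overlapped with knock-in arrays. Rsad2 was at -0.70 (SE 0.22, limma adjusted p = 0.288) and Cmpk2 at -0.78 (SE 0.22, limma adjusted p = 0.253), and without both acinar arrays at -1.0 and -1.15.

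Of the other effectors, Xaf1, linked to cell death, was at -0.54 (SE 0.20, unadjusted p = 0.0260, limma adjusted p = 0.358) and Rtp4 at -0.41 (SE 0.17, unadjusted p = 0.0357, adjusted p = 0.385). Bst2, the tetherin that holds budding virus at the cell surface, was at 0.03 (SE 0.11, 95% interval -0.23 to 0.28) although its promoter holds the ISRE core printed above, and Ifi35 was at -0.02 (SE 0.16, interval -0.37 to 0.34). Trim30a, above the dim limit on 2 wild type and 3 knock-in arrays, was at 0.34 (SE 0.21, adjusted p = 0.604). Oas3, Ifit3, Bst2 and Trim30a were the 4 genes with a positive change. Bst2 turned to -0.01 without wild type array 1 and to -0.03 without knock-in array 3, and Ifi35 changed sign under 7 alternatives, with values up to 0.05.

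The spread between arrays of one group was itself shared by the genes. Their median pooled SD was 0.255 over the 36 measured genes, against 0.185 over all tested genes. It was 0.216 in wild type and 0.276 with the knock-in, and the knock-in SD was the larger one in 24 of 36 genes (66.7%), against 46.5% of all tested genes. Pooled SDs ran from 0.07 for Ifnar2 and 0.08 for Ifnar1 to 0.65 for Oas2 and Zbp1. After each group's mean was removed, the mean correlation between 2 of the 36 genes over the 8 arrays was 0.42, and between 2 of all tested genes it was 0.00. These points share the arrays, and the value is given as a description.

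The same arrays were low or high for most of the genes. Within wild type, array 1 was the lowest for 23 of 36 genes (63.9%, against 23.1% of all tested genes) and array 4 the highest for 18 (50%, against 24.2%). Within knock-in, array 1 was the lowest for 26 (72.2%, against 24.8%) and array 4 the highest for 24 (66.7%, against 27.0%). Knock-in array 1 lay below all wild type arrays for 32 of the 36 genes, array 2 for 26, array 3 for 18 and array 4 for 11. The matching shares over all tested genes are not given here, so these counts only describe the 36 genes.

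Averaged over the 36 genes, the deviation from each gene's mean was -0.03, 0.22, 0.17 and 0.34 on wild type arrays 1 to 4 and -0.50, -0.29, 0.01 and 0.06 on the knock-in arrays. Knock-in arrays 3 and 4 thus lay just above wild type array 1, so the groups overlapped, and arrays 1 and 2 made up most of the difference. The same average over all tested genes stayed within -0.01 to 0.01 on every array. Knock-in arrays 3 and 4 are also the arrays with acinar transcripts, and the part of those transcripts in the higher values there was not tested.

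Kupffer cell markers had the same lowest and highest array in each group, while wild type arrays 2 and 3 stood in the other order. Wild type array 4 was the highest for all 11 of them and wild type array 1 the lowest for 8, while knock-in array 1 was the lowest for 10 and knock-in array 4 the highest for 10. Their mean deviation was -0.31, -0.16, 0.00 and 0.49 on wild type arrays 1 to 4 and -0.40, 0.03, 0.08 and 0.27 on the knock-in arrays. Between the groups their median change was 0.01. Vsig4, a receptor of these macrophages, read 9.37, 9.67, 9.56 and 9.87 for wild type and 9.27, 9.75, 9.72 and 10.09 for knock-in arrays. Stellate cell markers were also lowest on knock-in array 1, for 7 of 8. The part of these cells in the array pattern was not tested.

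**Figure D4:**
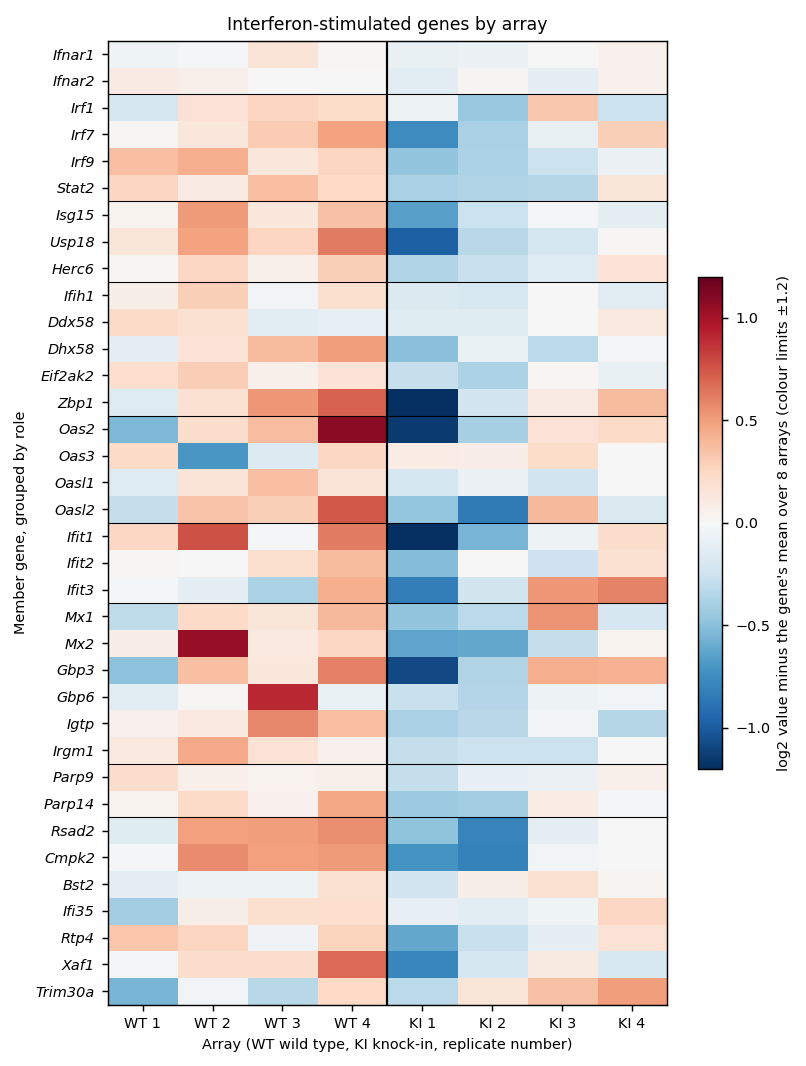
Deviation of each log2 value from the gene's mean over 8 arrays (colour, limits ±1.2, lower values in blue and higher in red) for the 36 measured genes (rows, grouped by role) on the 4 wild type and 4 knock-in arrays (columns). Knock-in array 1 is the bluest column, and wild type array 4 and knock-in array 4 are the highest of their groups for 18 and 24 genes.

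**Figure D5:**
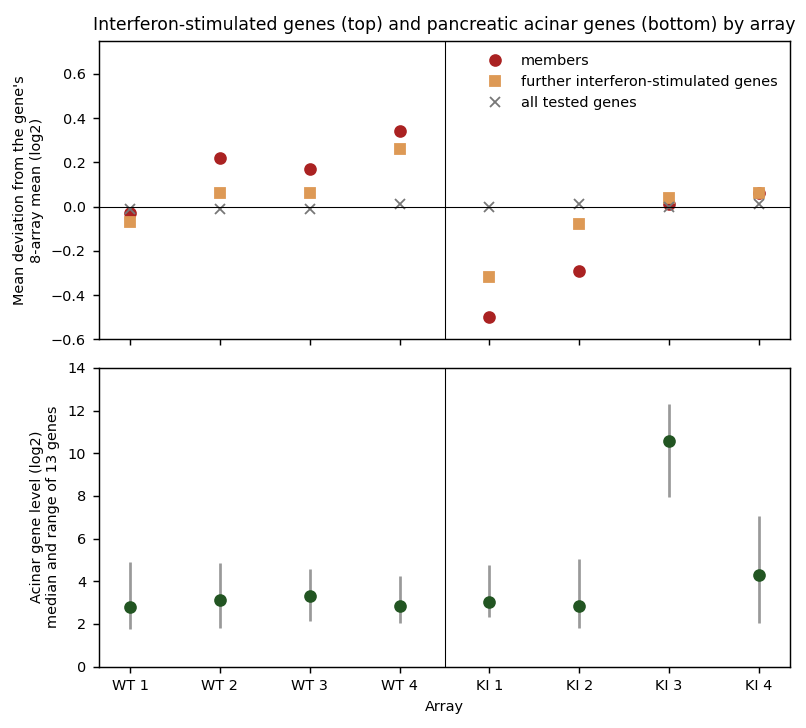
Top, mean deviation per array (log2) of the 36 measured interferon-stimulated genes, of 87 further ones and of all tested genes. Bottom, median (point) and range (bar) of the log2 levels of 13 pancreatic acinar genes, which stand at a median of 10.59 on knock-in array 3 and 4.31 on array 4.

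The rest of the pathway was read from lists fixed with earlier results of these data known, and no gene in them passed the adjusted threshold. Of 15 interferon genes with a probe set of their own, 9 were below the dim limit on all 8 arrays. Ifnb1, at 2.29 ± 0.13 in wild type and 2.49 ± 0.18 with the knock-in, and Ifng, at 3.20 ± 0.04 and 3.38 ± 0.19 (SD, n = 4 each), were too dim to be tested. Of the 5 interferon genes tested, Ifnl3, a type III interferon, was at 0.66 (SE 0.26, unadjusted p = 0.0319, limma adjusted p = 0.377), and Ifna4, Ifna14 and Ifnl2 were at -0.16, -0.46 and -0.19.

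Among 7 tested receptors, kinases and STATs, 0 had an unadjusted p under 0.05 and the median change was 0.00, with Stat3 at -0.06 and the type II receptor chain Ifngr2 at 0.07. Sensing and induction genes had 0 of 14 at that level and a median of 0.06. Ikbke, a kinase that activates the interferon-inducing factors, was at 0.41 (SE 0.22, limma adjusted p = 0.530) and the adaptor Myd88 at -0.22 (SE 0.17). Of 8 feedback inhibitors, 2 were lower at an unadjusted p under 0.05 (5.29% of all tested genes). Socs1, which inhibits the receptor's kinases, was at -0.49 (SE 0.15, limma adjusted p = 0.294), with 2 knock-in arrays under the dim limit. The RNA editor Adar was at -0.31 (SE 0.11, limma adjusted p = 0.339).

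A list of further interferon-stimulated genes, 82 of them tested, had 57 lower and 25 higher, with a median of -0.13 (48.9% of all tested genes were lower). At an unadjusted p under 0.05, 14 were lower and 1 higher (5.29% and 6.01% of all tested genes), and for 6 the knock-in arrays all lay below wild type (3.20%). Trim25, the ubiquitin ligase that activates RIG-I, read 9.09, 9.29, 9.43 and 9.10 in wild type and 8.73, 8.73, 8.76 and 8.85 with the knock-in, a change of -0.46 (SE 0.10, limma adjusted p = 0.145). Samd9l was at -0.41 (SE 0.10, adjusted p = 0.200), Tor3a at -0.79 (SE 0.20, adjusted p = 0.202), Irgm2 at -0.51 (SE 0.14, adjusted p = 0.242), Oas1g at -0.90 (SE 0.27, adjusted p = 0.277) and Rnf213 at -0.35 (SE 0.11, adjusted p = 0.288). Of these 6 named genes, the groups did not overlap for Trim25, Samd9l, Tor3a and Irgm2. Over these further genes the mean deviation per array ran in the same order at both ends, from -0.32 on knock-in array 1 to 0.26 on wild type array 4.

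Markers of the cells that make or answer interferon were read beside these values. In whole liver, fewer cells of a type and less RNA per cell cannot be told apart. Hepatocyte markers were bright on every array: on the linear scale their sum was 69000 to 70300 for wild type and 69900 to 71900 for knock-in arrays. Of the 10, 1 (Serpina1a) was lower at an unadjusted p under 0.05 (5.29% of all tested genes). Kupffer cell markers had 0 of 11 at an unadjusted p under 0.05, with sums of 3820 to 6030 and 3600 to 5660. T and NK cell markers had 0 of 11, with sums of 269 to 342 and 256 to 316, and monocyte and macrophage markers 0 of 9, with sums of 745 to 866 and 706 to 890.

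Sinusoidal endothelial markers had 1 of 9 higher at an unadjusted p under 0.05 (6.01% of all tested genes), with sums of 5640 to 6010 and 5890 to 6270. That marker, the hyaluronan receptor Lyve1, read 9.30, 9.32, 8.52 and 9.13 for wild type and 9.96, 10.11, 9.85 and 9.25 for knock-in arrays, a change of 0.73 (SE 0.23, unadjusted p = 0.0115, limma adjusted p = 0.295). Stellate cell markers had 0 of 8.

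Of 6 dendritic cell markers tested, 5 had a positive change and 1 a negative one, with a median of 0.26. At an unadjusted p under 0.05, 1 of the 6 was higher, Flt3 (6.01% of all tested genes were higher). The sums over the list were 248 to 320 for wild type and 279 to 4090 for knock-in arrays. The top of that range came from Klk1, which the exocrine pancreas also makes, at 11.89 on knock-in array 3. Siglech, the defining marker of plasmacytoid dendritic cells, the specialised producers of type I interferon, read 3.54, 3.29, 3.89 and 3.89 in wild type and 3.03, 2.70, 2.91 and 3.26 with the knock-in. It was too dim to be tested, with every knock-in array under the dim limit, and its part in the result was not tested. Among 6 B and plasma cell markers, 4 had a positive change and 2 a negative one, with a median of 0.04. At an unadjusted p under 0.05, 1 of the 6 was higher (6.01% of all tested genes). This was Jchain, at 1.04 (SE 0.25, unadjusted p = 0.00250, limma adjusted p = 0.184). The sums over the list were 517 to 771 for wild type and 585 to 1320 for knock-in arrays. Jchain was highest, at 6.18, on knock-in array 1, where the interferon-stimulated genes were lowest, and this too was not tested as a cause.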

How the data were processed

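The deposited table holds log2 values, 1 per probe set and array, normalized across arrays by the authors; the submitters' processing notes name RMA and limma without versions, and genome build is not given in the sources used here. The 8 arrays have medians of 3.73 to 3.80 and correlate at 0.973 to 0.980. Such normalization takes out any shift common to most genes and shrinks the differences of dim probe sets. Precision rests on having 4 arrays a group. GEO's platform annotation pairs 23521 of 41345 probe sets with 1 symbol and 1814 with several, and does not list a gene for 16010, and the brightest single-symbol probe set stood for each gene. Genes entered the test where 4 or more of the 8 arrays exceeded the dim limit, each array's 40th percentile over single-symbol probe sets (3.46 to 3.50). Groups were compared with limma 3.58.1 under R 4.3.3 (moderated fit, genotype alone, two-sided, Benjamini-Hochberg over all 13449 tested genes, threshold 0.05), checked on simulated data, with exact two-sided permutation tests beside it. SEs and intervals of untested genes come from the fit without the filter. Per-array values are given for the receptor chains, Stat2, Irf9, Irf7, Irf1, Isg15, Usp18 and the 10 genes with the smallest unadjusted p; Oas2, Ifit1, Ifit3, Zbp1, Siglech and the shared probe sets were added after their values were seen. Up to 4 genes per pathway list, and 6 of the further interferon-stimulated genes, were named by smallest p, and Ifnb1, Ifng and the cell type markers beyond that rule. Genes and lists were chosen with earlier results of these data known. The alternatives were other filters, normalizations, priors and probe set rules, array weights, a replicate block and leaving out arrays.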

Additional observations from a re-analysis of the deposited data

Results flagged for a closer look

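Within each group of 4 arrays, the highest or lowest value was compared with the rest for 58 genes and the mean deviation, 118 groups in all, and 13 had an end value whose gap to the next exceeded Dixon's critical share of the range, where chance gives about 5%. On wild type array 1, Rsad2 read 7.39 and Cmpk2 6.95 against at least 8.03 and 7.46 on the other wild type arrays, Irgm2 read 8.63 against at least 8.93, and Parp9 read 9.54 against at most 9.39. On wild type array 3, Gbp6 read 2.89 (a dim gene), Irf2 9.27 and Pias1 8.74. Bst2 read 11.13 on wild type array 4. On knock-in array 4, Stat2 read 8.32 against 7.78 to 7.83 on the other knock-in arrays, and Irgm1 7.31 against 7.02 to 7.05. On knock-in array 3, which holds acinar transcripts, Igtp read 8.31 and Jak2 8.73, and on knock-in array 2 Samd9l read 6.21.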

How the results depend on the processing

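Under the 17 alternatives run, the median over the 36 genes stayed negative. Of these genes, 0 passed the adjusted threshold, except that 1 (Irf9, limma adjusted p = 0.0272) passed with a trended and robust prior. Over all tested genes the replicate numbers did not pair the arrays: same-numbered arrays correlated at 0.10, -0.11, -0.03 and -0.04. Over the 36 genes these correlations were 0.43, -0.32, -0.10 and 0.33, with both signs. With the replicate block, 0 of the 34 tested members passed, and 18 were lower and 1 higher (Trim30a) at an unadjusted p under 0.05. Leaving out arrays in turn gave 10 to 20 lower and 0 to 1 higher at that level, where 4.31% to 5.35% of all tested genes were lower. The median change ran from -0.46 to -0.27 and the median pooled SD from 0.230 to 0.284. Counts over all genes past the threshold ran from 1 to 73, against 9. Of the 36 genes, 5 changed sign under at least 1 alternative (Oas3, Ifit3, Gbp3, Bst2 and Ifi35), as did 2 of the 22 named pathway genes (Ifngr2 and Jak2), and none of these had passed the test. The fit without both acinar arrays was added after the data were seen and leaves 2 knock-in arrays. Dim genes have compressed changes here.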
